A study of Arabidopsis thaliana with 24 samples.

Results

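Of 5734 nuclear regions deposited as bZIP68 binding peaks in seedlings of Arabidopsis thaliana, 3272 (57.1%) were promoter peaks lying across the transcription start of a nuclear gene. They were chosen as the regions whose deposited annotation begins with promoter and whose deposited distance to the start is 0, on chromosomes 1 to 5. Another 14 regions lay on the organelle genomes. No expression value entered that choice. The regions belonged to 3271 genes, since AT3G09690 carried 2 of them. A further 701 promoter peaks ended 1 to 1000 bases upstream of a start, and 1199 began downstream of one.

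bZIP68 is a basic leucine zipper (bZIP) transcription factor of group G, a plant family that includes the G-box binding factors GBF1, GBF2 and GBF3. Such factors bind DNA as dimers, and the element they are known for is the G-box, the palindrome CACGTG, whose core is ACGT. G-boxes lie in many promoters that answer to light, the clock and abscisic acid, and factors of several other families bind them too. The series title describes bZIP68 as redox-sensitive and as bearing on stress tolerance and growth.

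Binding was measured by chromatin immunoprecipitation and sequencing (ChIP-seq) with a FLAG antibody in 8-day seedlings, 3 samples of bZIP68-FLAG plants and 3 of GFP-FLAG plants, which served as the control for calling peaks. RNA was sequenced from whole 14-day seedlings kept under white light of 125 µmol (per square metre and second): wild type (wt) and bzip68 mutants, sprayed either with 0.01% Triton X-100 (mock) or with 5 mM hydrogen peroxide (H2O2) in the same detergent, 3 samples in each of these 4 groups. Low light samples of both genotypes are not analysed here. The promoter driving the FLAG fusions, the background of those plants, the mutant allele, the time from spraying to harvest and the hour of harvest are details not given in the sources used. All groups were grown with 3% sucrose under long days. Peaks and RNA came from plants of different age, so no plant was measured in both ways.

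Library totals ran from 8997073 to 10262992 counts, and 18205 of 18430 genes passed the filter on low counts. BZIP68 itself had 74, 82 and 102 counts in mock wt, 2, 1 and 1 in mock bzip68, 87, 93 and 70 in H2O2 wt and 2, 0 and 2 in H2O2 bzip68. A principal component with 19% of the variance set 2 libraries apart from the rest, replicate 2 of H2O2 wt and replicate 2 of mock bzip68. Chloroplast genes took 0.0121% of the counts of H2O2 wt replicate 2 and 1.05% to 1.54% of those of every other library. All 41 genes of a photosynthesis list and 16 of 20 root markers passed the filter in these whole seedlings. In such bulk samples, fewer cells of a type and less RNA per cell cannot be told apart. The labels do not say whether the 3 samples of a group were grown separately. The p-values therefore set each difference only against the spread of these samples, and that spread may be technical.

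Among the 8 regions of highest deposited score, the G-box nearest the middle lay in coding sequence wherever a G-box was present. These G-boxes are shown first because of those scores, and other G-boxes in the same regions are not shown. Capitals mark the G-box nearest the middle of the region, each sequence is read 5′ to 3′ on the strand of the assigned gene, and coordinates are TAIR10. In 6 of the 8 regions of highest score a G-box was present, and in each of the 6 the one nearest the middle fell in a coding exon. The choice used the deposited starts. By the RefSeq annotation the regions at DAD1, PUP4, AT1G68470 and CYP86A4 covered no protein-coding start, and neither did 367 of all 3272. The windows of 30 bases follow. For DAD1, chr2:18479789-18479818 on the plus strand lies 748 bases inside the gene. For AT4G37895, the exon (chr4:17813253-17813282, plus strand) is that of the overlapping gene AT4G37890, at -275 bases from the start of AT4G37895. The others are chr1:10974748-10974777 (PUP4, plus strand), chr1:25677574-25677603 (AT1G68470, minus strand), chr1:220215-220244 (CYP86A4, plus strand) and chr5:17497227-17497256 (AT5G43540, plus strand).
AT4G37895: agtcgtaggatcCACGTGgcgtgatcggac
DAD1: ctttcggaggtcCACGTGtcggaaacagat
PUP4: ccggtgggtctcCACGTGggttcaatctgc
AT1G68470: tcatgcaaatgcCACGTGtcatgaacatgt
CYP86A4: acgtttctccaaCACGTGgcgcttaacttt
AT5G43540: catagatgtttcCACGTGgcgtctgacctt

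At the genes of the G-box binding factors themselves, and at 3 genes that fell after H2O2, a G-box lay between genes upstream of the start. Such a G-box was taken first wherever a region held one, so this position is set by the choice. These windows of 66 bases hold no annotated exon, and capitals mark the G-box nearest the middle among those with such a window. GBF1 (chr4:17312509-17312574, minus strand), GBF2 (chr4:484536-484601, minus strand) and GBF3 (chr2:18999582-18999647, plus strand) had theirs at -51, -83 and -574 bases from the start, where negative is upstream. GBF1 had another G-box in the same window, in lower case. LHY (chr1:37916-37981, minus strand), CCA1 (chr2:19245368-19245433, plus strand) and BBX30 (chr4:8708739-8708804, plus strand) had theirs at -189, -269 and -74 bases. LHY, CCA1 and BBX30 were chosen for display after their expression was known, and because their G-box had such a window. At other genes that fell, GBSS1 and COL2, the G-box shown by the same rule lay in an untranslated exon. At UGT84A1 and AFR it lay in a coding exon, and the region at BBX32 held no G-box.
GBF1: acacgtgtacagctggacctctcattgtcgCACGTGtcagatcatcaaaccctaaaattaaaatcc
GBF2: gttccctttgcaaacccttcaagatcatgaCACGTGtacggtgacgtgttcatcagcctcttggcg
GBF3: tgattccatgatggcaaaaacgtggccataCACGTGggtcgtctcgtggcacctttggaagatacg
LHY: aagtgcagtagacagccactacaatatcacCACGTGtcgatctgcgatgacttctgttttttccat
CCA1: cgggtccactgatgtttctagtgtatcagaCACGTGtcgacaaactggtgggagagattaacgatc
BBX30: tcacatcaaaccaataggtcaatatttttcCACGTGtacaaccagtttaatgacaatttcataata

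The start-covering regions were wide. Their width had a median of 1005 bases (quartiles 856.8 and 1294), against 844 bases for the regions upstream and 914 for those downstream. A wide region is more likely to reach a start, so width is in part set by the choice. The middle of the region lay at a median of -20.5 bases from the start, with quartiles at -175 and 191.5 bases (negative is upstream). In 2024 regions (61.9%) the middle lay within 250 bases of the start, and 1519 regions had it downstream of the start. At the border of the choice, 37 regions had an edge within 10 bases of the start, and 25 promoter regions missed a start by 1 to 10 bases.

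The regions were spread over the genome evenly per gene, with 11.3 to 12.4 for every 100 protein-coding genes of each chromosome. Some reached more than 1 annotated start: 530 (16.2%) covered those of at least 2 protein-coding genes. In 410 (12.5%) neighbouring genes among these ran in opposite directions, away from each other. For such a region the deposited assignment names 1 of the genes.

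The peak score, which the authors' caller derives from the peak's p-value and which is larger for a smaller p, had a median of 157.5 (range 52.88 to 3135.41), against 141.9 upstream and 135.8 downstream. Of these regions 695 (21.2%) were also in the authors' shorter list, compared with 12.8% of the upstream and 7.51% of the downstream regions. The shorter list is limited to a window from -1500 to 500 bases around starts, and the part of that limit in these shares was not tested.

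The region with the highest score, 3135.41, was only 88 bases wide and lay on the 18S ribosomal RNA gene AT3G41768, a repeated sequence. The next was AT4G37895 (score 2101.71), a long non-coding RNA antisense to AT4G37890. DAD1 (1832.44), a phospholipase of jasmonate synthesis in anthers, SDR2 (1817.95), a short-chain dehydrogenase, and PUP4 (1663.17), a purine permease, followed. AT1G68470, an exostosin family protein (1484.39), CYP86A4, a fatty acid hydroxylase of the cutin pathway (1447.68), and AT5G43540, a zinc finger protein (1431.96), completed the 8. CYP86A7 and CYP86A2, relatives of CYP86A4, ranked 9 and 13 with scores of 1431.5 and 1172.4.

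The 4 genes of highest score have no counts analysed here, and the other 4 had low or moderate values. PUP4 had 7.37, 7.47 and 4.66 CPM (counts after scaling for library size) in mock wt. CYP86A4 had 11.7, 13.8 and 12.6 CPM, and AT5G43540 0.854, 1.45 and 1.39. None of the 4 tested genes changed with genotype or with H2O2 (edgeR quasi-likelihood test, Benjamini-Hochberg adjusted p 0.175 or more).

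One region with a score of 522.39 (chr1:11568165-11568748), assigned to AT1G32160, lay over the end of BZIP68, whose annotated gene ends at 11568645. A separate region inside BZIP68, 437 bases downstream of its start, had the identical score of 522.39 and is not among the start-covering regions. The ChIP plants carry a bZIP68-FLAG transgene, and its part in these reads was not tested. Among the start-covering regions, 13 (0.397%) shared their exact score with another region within 5 kb.

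The G-box was present in 1651 start-covering regions (50.5%, exact 95% interval 48.7 to 52.2). It was present in 44.8% of the upstream and 41.5% of the downstream regions. Per kilobase the order differed, with 0.665 G-boxes in the start-covering, 0.747 in the upstream and 0.641 in the downstream regions. CACGTG was searched on both strands, which for a palindrome is 1 search. In all, 1102 regions held 1 G-box, 381 held 2 and 168 held 3 or more, up to 7.

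In the central 200 bases, the same length for every region, 789 start-covering regions (24.1%, 22.7 to 25.6) held a G-box, beside 28.2% of the upstream (24.9 to 31.7) and 21.9% of the downstream regions (19.6 to 24.4). Of all 200-base windows of the nuclear genome 2.2% held it, and of the 200 bases before all protein-coding starts 5.64%. The start-covering share thus lay between those of the upstream and the downstream regions, and its interval overlapped both of theirs. Among the 24 palindromes of 6 bases with the same content of G and C, the G-box ranked 1 by its share of centres. It also ranked 1 by its density in centres over that in the flanks, a ratio of 5.03. GACGTC, which holds the same ACGT core, ranked 2 by that ratio at 2.35.

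G-boxes were concentrated at the middle. Counted in bins of 50 bases, there were 83.1 and 83.7 for every 1000 start-covering regions on either side of the middle, falling to 11.3 and 9.78 at the far bins 450 to 500 bases away.

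**Figure D1:**
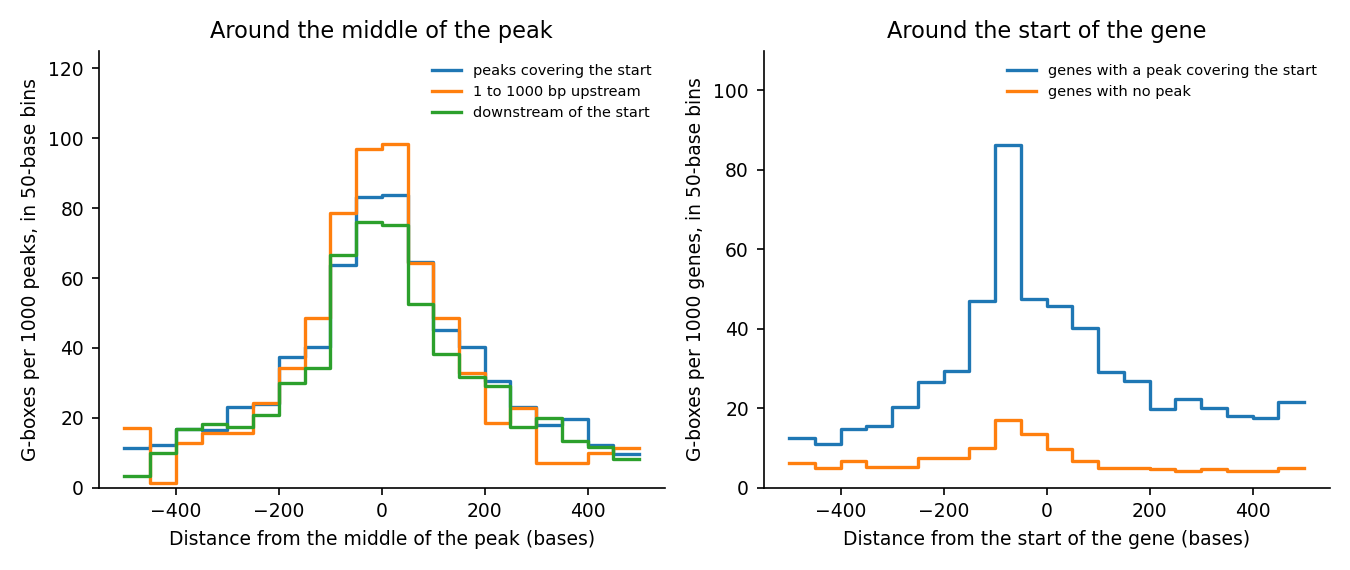
G-boxes in 50-base bins around the middle of the region (left, number per 1000 regions, for 3 classes of region) and around the annotated start of the gene (right, number per 1000 protein-coding genes). The start-covering regions reach 83.7 per 1000 at the middle, and their genes reach 86.2 per 1000 at 50 to 100 bases before the start, where genes with no peak reach 17.1.

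Seen from the gene, the G-boxes sat just upstream of the start. Genes with a start-covering region had 86.2 G-boxes for every 1000 genes between 100 and 50 bases before the annotated start. The next bin toward the start held 47.6 and the first 50 bases of the transcript 45.7. Genes with no peak had their highest value in the same bin, 17.1 for every 1000 genes. In a window from 250 bases before to 50 after the start, 703 of 3086 protein-coding genes with a start-covering region held CACGTG (22.8%, 21.3 to 24.3). The share was 7.69% of genes with an upstream region, 5.73% of genes with no peak and 7.68% of all. Start-covering regions were chosen to lie over this window and upstream regions end before the start, so the choice in part sets the difference between them. In the centres of the regions themselves the shares were 24.1% and 28.2%. The TATA motif TATAAA, also searched on both strands, was in 47.1% of the same windows of genes with a start-covering region and in 52.1% of all. These matches are descriptions of the letters in each window and not sites shown to be bound.

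Scores and G-boxes rose together. With the start-covering regions cut into 4 equal groups by score, 32.0%, 47.1%, 54.5% and 68.2% held a G-box, from the lowest scores to the highest. In the central 200 bases of the same groups the shares were 15.3%, 23.1%, 27.4% and 30.7%. The median width rose too, from 896.5 to 1165.5 bases. Of the 2457 G-boxes under start-covering regions, 32.8% lay in coding exons, 24.1% in untranslated exons, 2.12% in introns and 41.0% between genes. In the group of highest score the coding share was 40.6%, against 34.8%, 22.4% and 27.6% in the other 3 from low to high.

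The bases beside the G-box differed sharply between the sites under the regions and those of the genome at large. A G-box with its neighbours can take 10 forms once both strands are joined, and 3 of them, ACACGTGG, CCACGTGG and ACACGTGT, made up 36.6%, 19.3% and 18.6% of the 939 G-boxes in the central 200 bases. Of the 14508 G-boxes of the nuclear genome they make up 2554, 1148 and 1945, so 13.5%, 15.8% and 9.0% of these sites lay in the centre of a start-covering region. Of the sites of the form GCACGTGC 1.67% did.

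The same held when only G-boxes within 500 bases of a protein-coding start were considered. Of these, 31.0% of the CCACGTGG sites, 28.1% of the ACACGTGG sites and 20.3% of the ACACGTGT sites lay in the centre of a start-covering region. Among the 7 other forms the share ran from 5.22% for GCACGTGC to 13.1% for CCACGTGC, with 7.25% for TCACGTGA. The 3 leading forms are those with A or C before the G-box and G or T after it on either strand, a grouping made after these values were seen.

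**Figure D2:**
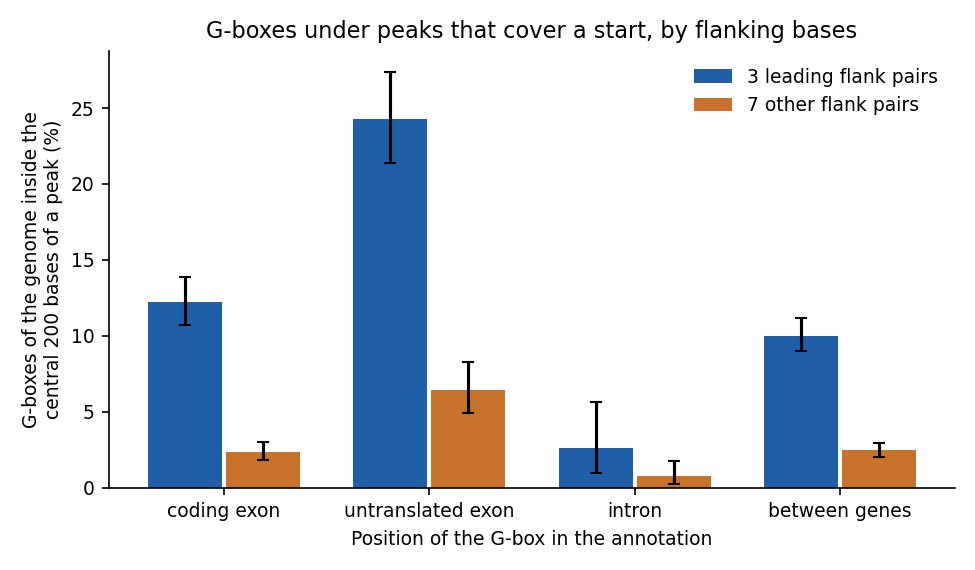
Share of the genome's G-boxes that lie in the central 200 bases of a start-covering region, by annotation (x axis) and by flanking bases, with exact 95% binomial intervals. The 3 leading flank pairs are those with A or C before and G or T after the G-box, picked from these same sites. They stand above the other 7 in exons and between genes, while in introns the intervals overlap.

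The leading flanks had the higher share in each kind of sequence with enough sites. The 3 forms were picked from these same sites, so the split describes them and is no independent evidence. In coding exons, 12.2% of G-boxes with the leading flanks lay in the centre of a start-covering region (exact interval 10.7 to 13.9), against 2.34% of the others (1.8 to 2.99). In untranslated exons the shares were 24.3% and 6.46%, and between genes 10.0% and 2.46%. In introns they were 2.62% (0.967 to 5.62) and 0.76% (0.247 to 1.76), with 6 and 5 centred sites, and the intervals overlapped. The intervals cover counting error only.

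Start-covering regions lay at expressed genes more often than at others. They covered 11.2% of the 27444 protein-coding genes of the reference. Of genes with no counts analysed here 4.98% had one, and in 4 equal groups by level in mock wt, from low to high, the shares were 10.5%, 12.9%, 14.9% and 19.7%. Of the genes in the top 1% of level, 34.1% had one. The level here is CPM per kilobase of exon (RPKM), and its median over tested genes in mock wt was 11.6 for genes with a start-covering region, 9.05 for genes with an upstream region, 8.08 with a downstream region and 8.04 with no peak. In each of the 3 mock wt libraries the start-covering median, between 11.5 and 11.9, was the highest of these and the upstream median came next. Genes with a downstream region (7.92, 7.83 and 7.68) lay just below genes with no peak (7.96, 8.02 and 8.05) in each library.

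The listed pathways differed in how many of their genes had a start-covering region. Photosynthesis led with 26 of 41 genes (63.4%, exact interval 46.9 to 77.9), followed by the group G factors with 3 of 5 (60.0%, 14.7 to 94.7), the clock and photoperiod list with 14 of 30 (46.7%), drought and cold output with 13 of 29 (44.8%) and abscisic acid signalling with 16 of 40. Genes responsive to oxidative stress had 10 of 29 (34.5%), light signalling 10 of 42 (23.8%), jasmonate 6 of 28 and reactive oxygen enzymes 9 of 43 (20.9%). Flavonoid genes had 5 of 26, auxin and growth 9 of 47, heat shock 3 of 19 and root markers 1 of 20. All 41 photosynthesis genes were in the top 5% of level, with a lowest RPKM of 178.0, so their share is to be read beside those of all genes at such levels. These were 34.1% in the top 1% (from an RPKM of 357.4) and 22.3% in the next 1% (from 210.3), and 129 of 537 genes from there to 5% (from 98.8) had one.

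**Figure D3:**
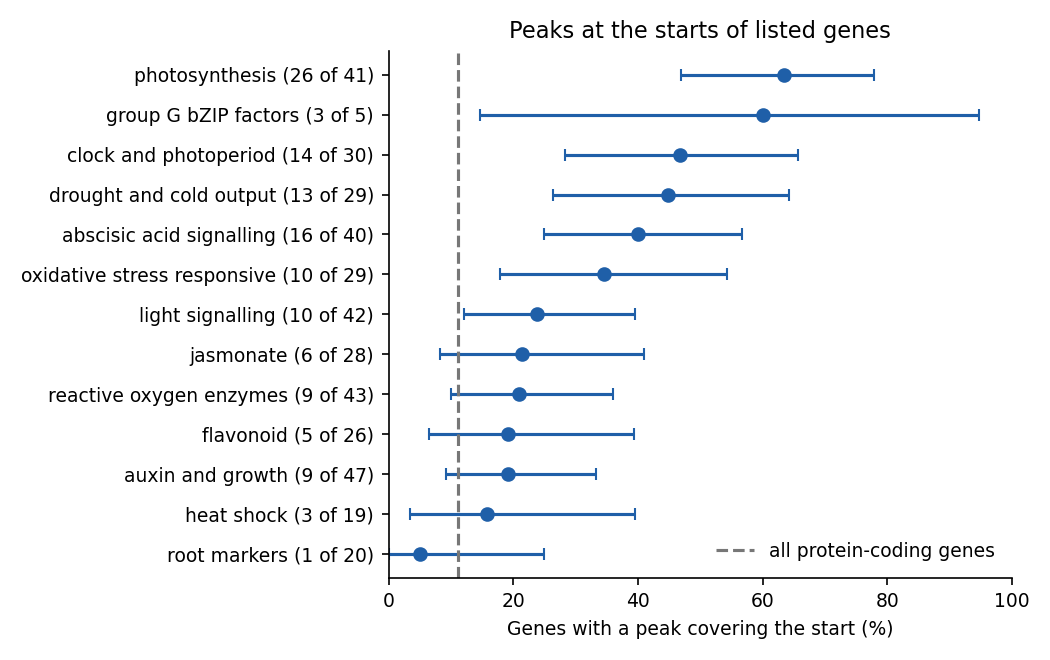
Share of each list's genes with a start-covering region, with exact 95% binomial intervals that cover counting error only; the dashed line is the share of all protein-coding genes (11.2%). Photosynthesis has the highest share (63.4%) and root markers the lowest (5.0%).

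Among the photosynthesis genes, the highest scores were at PSBR (567.69) and PSBP-1 (558.46), subunits of photosystem II, LHCB2.2 (548.35), a light-harvesting protein, and RBCS3B (471.88), a small subunit of Rubisco. The region at PSBR was 1822 bases wide. Of the 26 regions, 17 held a G-box. LHCB2.2 and RBCS3B belong to families of near-identical copies, so both peak reads and counts may be shared among copies.

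Of the 5 group G genes, 3 had a start-covering region, GBF2 (558.52), GBF3 (489.72) and GBF1 (191.09), and all 3 regions held a G-box. GBF2 had 20.4 ± 1.79 CPM in mock wt and 18.6 ± 3.35 in mock bzip68 (SD, n = 3), a difference within the spread between samples. None of the 3 passed the test in any comparison.

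In the abscisic acid list the highest score was at PYL6 (1075.85, with 4 G-boxes), a receptor, then at the receptor PYL4 (375.63), the phosphatase AHG1 (306.42) and NCED3 (299.74), an enzyme of abscisic acid synthesis. In the drought and cold list the highest were GOLS2 (868.78), GOLS3 (772.03) and GOLS1 (332.52), galactinol synthases of raffinose production, and P5CS1 (304.8), of proline synthesis.

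The comparison of bzip68 with wt asks which of these genes depend on bZIP68. After mock spray, 8 of the 2616 tested genes with a start-covering region changed (0.306%), 1 higher and 7 lower, where the background over all 18205 tested genes was 0.214% (0.0439% higher and 0.17% lower; edgeR quasi-likelihood test, Benjamini-Hochberg adjusted p under 0.05). The share is near the background. At an unadjusted p under 0.05 there were 290 (11.1%, background 10.1%). The background counts BZIP68 itself, which fell by 5.84 on the log2 scale (adjusted p = 2.75e-07).

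Of the 7 that fell, 4 code for proteins tied to stress signalling and flowering. TCH3, a touch-induced calmodulin-like calcium sensor, had 421.8, 503.7 and 318.4 CPM in mock wt and 166.2, 149.8 and 174.8 in mock bzip68. The log2 fold change was -1.34 ± 0.23 (SE; edgeR adjusted p = 0.0401), and the groups did not overlap. SIB1, a partner of WRKY33 and of plastid sigma factors, had 2.99, 7.47 and 3.37 CPM against 0.821, 1.05 and 1.19, a change of -2.16 ± 0.38 (edgeR adjusted p = 0.0401), with mock wt replicate 2 above the others.

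TEM1 and RAV2 (also called TEM2) are related repressors of flowering, and both fell. TEM1 had 73.9, 88.5 and 57.5 CPM in mock wt and 37.8, 33.0 and 45.8 in mock bzip68 (-0.91 ± 0.17, edgeR adjusted p = 0.0437). RAV2 had 67.8, 103.4 and 51.2 against 36, 36.6 and 39.9 (-0.98 ± 0.19, edgeR adjusted p = 0.0476). After H2O2 spray their values again did not overlap between genotypes: TEM1 had 67.7, 87.6 and 71.1 in wt and 57.2, 48.0 and 52.4 in bzip68, and RAV2 83.7, 81.3 and 74.7 against 44.7, 47.6 and 48.4. There neither passed the test (edgeR adjusted p = 0.368 and 0.191). RAV2 passed it by DESeq2 (adjusted p = 0.0352) and in an edgeR fit of only the groups compared (0.0176), at the same log2 fold change of -0.77.

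AT2G44130, the Kelch F-box protein KMD3, had 15.7, 14.5 and 9.42 CPM in mock wt and 6.05, 6.79 and 6.72 in mock bzip68 (-1.02 ± 0.19, edgeR adjusted p = 0.0476). AT1G33610, a leucine-rich repeat protein, had 20.0, 25.8 and 17.4 against 9.33, 11.9 and 13 (-0.88 ± 0.17, edgeR adjusted p = 0.0476). AT1G19380 fell by 1.21 ± 0.22 on the log2 scale (edgeR adjusted p = 0.0401). In wt AT2G44130 and AT1G33610 also fell after H2O2, to 6.45 ± 0.947 and 11.1 ± 0.472 CPM (SD, n = 3, edgeR adjusted p = 0.00241 and 0.00193). In mock bzip68 they had 6.52 ± 0.407 and 11.4 ± 1.89 CPM. Both comparisons use the same mock wt samples, so a high value there would enter both. In bzip68 their changes after H2O2 were -0.22 and 0.0, and the difference in response did not pass (edgeR adjusted p = 0.718 and 0.588).

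The gene that rose was AT3G15357, with 1.28, 1.34 and 1.88 CPM in mock wt and 5.03, 4.56 and 4.77 in mock bzip68 (1.66 ± 0.27, edgeR adjusted p = 0.0265). After H2O2 it had 1.38, 2.26 and 2.64 against 3.6, 4.02 and 3.1 CPM, without overlap and without passing the test (edgeR adjusted p = 0.391). Of the 8 regions, 4 held a G-box, those at AT3G15357, SIB1, AT1G33610 and AT2G44130. The G-boxes at AT3G15357 and AT2G44130 are shown because they lie at changed genes, at chr3:5187057-5187086 and chr2:18254090-18254119, both on the plus strand, the former at -42 bases from the start and the latter in the coding exon 492 bases inside the gene.
AT3G15357: cacgtgtctatcCACGTGtcaactcctact
AT2G44130: cgctgcgatgtcCACGTGgcatcgcgttgc

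Whether these genes passed the threshold depended on which libraries were in the fit. The number of start-covered genes called was 1, 0 and 28 when mock wt replicates 1, 2 and 3 were left out in turn, and 5, 7 and 0 when mock bzip68 replicates 1, 2 and 3 were. Each of the 8 genes kept its direction in all 6 of these fits and missed the threshold in 3 to 5 of them. Without both libraries that stand apart, 5 of the 8 passed, and TCH3 (edgeR adjusted p = 0.144), RAV2 (0.0931) and AT1G33610 (0.052) did not. In an edgeR fit of only the groups compared 1 of the 8 passed, TCH3 (adjusted p = 0.0223), while by DESeq2 all 8 did.

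After H2O2 spray, 0 of the 2616 genes differed between genotypes by edgeR, against a background of 0.0714% (0.0275% higher and 0.0439% lower). At an unadjusted p under 0.05 there were 276 (10.6%, background 9.23%), and DESeq2 called 8. The difference between the responses of the genotypes called 0 genes (background 0%), with 194 at an unadjusted p under 0.05 (7.42%, background 6.47%) and 3 by DESeq2. TCH3, at 1.32 ± 0.32 on the log2 scale (edgeR adjusted p = 0.588), and SIB1, at 2.07 ± 0.53 (0.588), were among those that did not pass.

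Many more of the genes differed between H2O2 and mock spray. In wt, 362 of the 2616 passed the test (13.8%), 166 higher and 196 lower, where the background was 9.74% (5.02% higher and 4.72% lower). In bzip68 it was 274 (10.5%), 140 higher and 134 lower, with a background of 7.39% (4.11% and 3.28%). The wt count was 232 without mock wt replicate 1 and 234 without mock wt replicate 3. The bzip68 count was 168 without mock bzip68 replicate 3 and 152 without H2O2 bzip68 replicate 3. In all 15 settings tried for each genotype the share was above that of all genes, by a ratio of 1.31 to 1.54 in wt and of 1.34 to 1.52 in bzip68.

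A similar share was seen at genes whose region misses the start. Of genes with an upstream region 15.5% changed in wt and 13.7% in bzip68, and of genes with a downstream region 13.3% and 12.5%. Of genes with no peak 8.55% and 6.33% changed. Genes whose start-covering region held a G-box changed in 16.2% and 12.2% of cases, and those without one in 11.5% and 8.75%. In the 4 groups by score the wt share was 10.6%, 13.8%, 11.9% and 18.9% from low to high.

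More counts make a call easier, and start-covered genes are more highly expressed, so shares were also set side by side within 4 equal groups by mean CPM over all libraries. In the wt response, from the lowest to the highest, 10.0%, 12.4%, 14.2% and 16.8% of start-covered genes changed, against 5.56%, 7.99%, 9.71% and 11.3% of genes with no peak. In the bzip68 response the shares were 11.2%, 8.61%, 8.88% and 12.5% against 4.44%, 6.63%, 6.65% and 7.75%. The start-covered share was the higher in each of the 8 pairs.

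**Figure D4:**
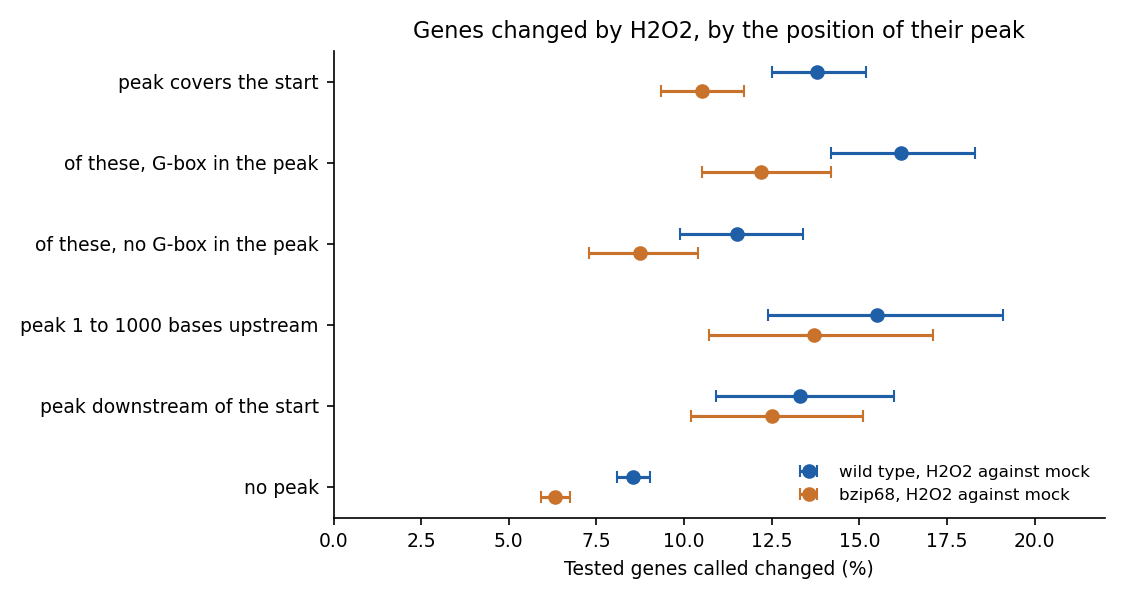
Share of tested genes called changed after H2O2 (edgeR adjusted p under 0.05), by where their region lies, in wt and in bzip68. Bars are exact 95% binomial intervals over genes, which are not independent. Genes with a start-covering region (13.8% and 10.5%) lie above genes with no peak (8.55% and 6.33%) and near genes with an upstream region (15.5% and 13.7%).

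Several of the genes with the largest changes belong to the clock. Of the 14 clock and photoperiod genes with a start-covering region 13 were tested, and in wt 5 rose and 5 fell after H2O2. In bzip68 5 rose and 4 fell. Of all tested genes 5.02% rose and 4.72% fell in wt, and 4.11% and 3.28% in bzip68. This list was drawn up with results of these samples known, so its count is no independent evidence. Whether mock and H2O2 plants were harvested at the same hour is not given. A difference in hour therefore cannot be told apart from the spray.

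The morning genes fell. CCA1 and LHY, MYB factors at the core of the clock, went from 127.7, 98.2 and 138.4 to 26.7, 33.5 and 21.3 CPM and from 22.6, 19.2 and 22.7 to 2.26, 2.07 and 2.23 CPM in wt. The log2 fold changes were -2.16 ± 0.19 (edgeR adjusted p = 1.97e-06) and -3.29 ± 0.22 (3.46e-07). In bzip68 they were -1.8 ± 0.18 (edgeR adjusted p = 1.43e-05) and -2.89 ± 0.22 (8.2e-07). In both genotypes every H2O2 library lay below every mock library. Of the LNK genes, coactivators of the clock, LNK2 fell from 389.3 ± 51.5 to 171.5 ± 40.9 CPM in wt (SD, n = 3; edgeR adjusted p = 0.000198), and LNK1 and AT5G06980 (LNK4), with the highest score of the list (655.27), also fell.

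Genes of the afternoon and evening rose. FKF1, a blue light receptor of photoperiodic flowering, had 2.78, 2.12 and 2.38 CPM in mock wt and 51.4, 46.1 and 51.3 in H2O2 wt, a log2 fold change of 4.35 ± 0.15 (edgeR adjusted p = 1.4e-10). In bzip68 it had 1.85, 2.57 and 2.38 against 47.8, 45.1 and 46.2, also 4.35 ± 0.15 (edgeR adjusted p = 1.76e-10). The estimated difference in response between genotypes was 0.01 ± 0.21 on the log2 scale and did not pass.

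PRR3, PRR5 and TOC1, pseudo-response regulators that repress the morning genes, rose by 3.01, 2.87 and 1.72 on the log2 scale in wt (edgeR adjusted p = 8.09e-06, 1.34e-06 and 2.44e-05). PRR7, of the same family, was at 0.46 (edgeR adjusted p = 0.106). COR27, a regulator of freezing tolerance and flowering that the clock controls, had 2 counts in all of mock wt and 210 in H2O2 wt, a ratio of 97.4 with a counting interval of 26.6 to 809.4. In bzip68 it had 4 and 241 counts, a ratio of 61.0 (23.5 to 225.6). These intervals pool the samples of a group and leave out the spread between them. The log2 fold changes of COR27 were 6.36 ± 0.6 in wt and 5.78 ± 0.52 in bzip68 (edgeR adjusted p = 4.86e-06 and 4.72e-06). GRP7, a clock-controlled RNA-binding protein, rose from 105.0, 125.3 and 86.7 to 745.4, 949.8 and 816.8 CPM in wt, or 2.99 ± 0.16 on the log2 scale (edgeR adjusted p = 6.23e-08).

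**Figure D5:**
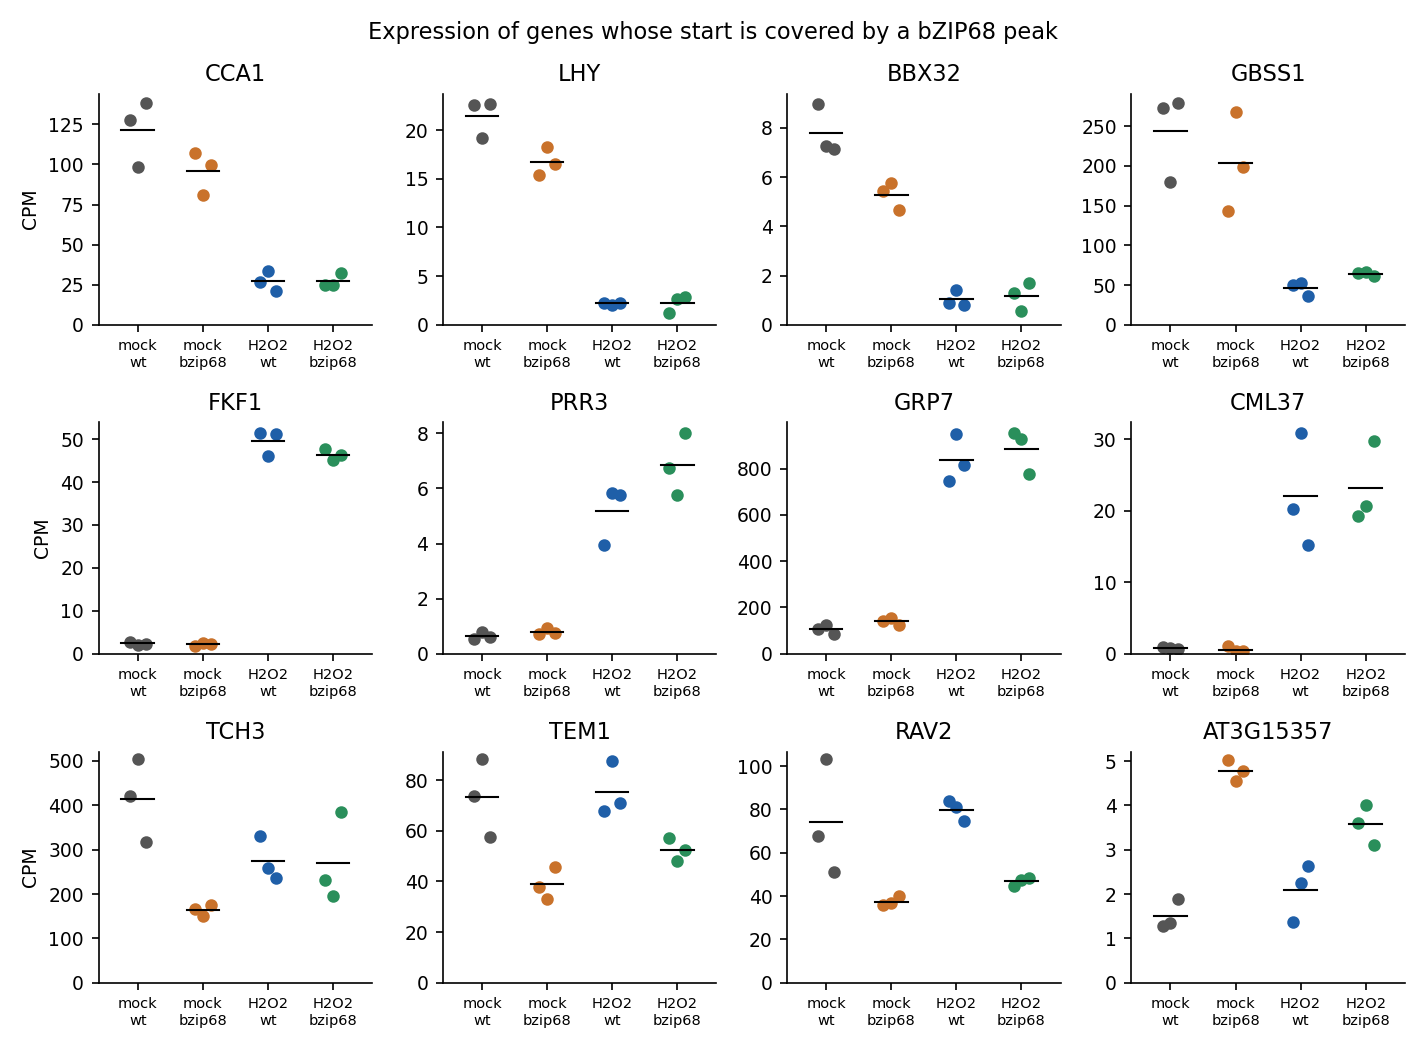
CPM in each of the 3 samples (points) and their mean (line) in the 4 groups, for 12 named genes with a start-covering region. CCA1, LHY, BBX32 and GBSS1 are lower and FKF1, PRR3, GRP7 and CML37 higher in all H2O2 samples than in all mock samples, while TCH3, TEM1, RAV2 and AT3G15357 differ between genotypes after mock spray.

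Outside the clock, the genes that fell most in wt included BBX32 and BBX30, B-box proteins of light signalling. BBX32 had 8.97, 7.25 and 7.14 CPM in mock wt and 0.886, 1.41 and 0.812 in H2O2 wt (-2.89 ± 0.3, edgeR adjusted p = 1.7e-05). BBX30 had 6.51, 4.69 and 5.35 against 0.59, 1.22 and 0.71 (-2.69 ± 0.31, edgeR adjusted p = 3.4e-05). GBSS1, the starch synthase that makes amylose, fell by 2.39 ± 0.22 in wt and by 1.66 ± 0.22 in bzip68 (edgeR adjusted p = 8.09e-06 and 0.000251).

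UGT84A1, a glucosyltransferase of phenylpropanoids, fell by 1.9 ± 0.24 in wt and by 0.84 ± 0.23 in bzip68, a difference of 1.06 ± 0.34 that did not pass (edgeR adjusted p = 0.71). In bzip68 COL2, a CONSTANS relative, fell by 1.79 ± 0.13 and AFR, an F-box protein of phytochrome signalling, by 1.66 ± 0.15 (edgeR adjusted p = 5.86e-07 and 6e-06). COL2 fell by 1.8 in wt as well, and AFR by 1.39.

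Among the genes that rose most were CML37, a calmodulin-like protein, and HSP17.4, a small heat shock protein. CML37 had 0.961, 0.781 and 0.694 CPM in mock wt and 20.3, 30.8 and 15.2 in H2O2 wt (4.75 ± 0.36, edgeR adjusted p = 9.8e-07). HSP17.4 had 1.92, 1.67 and 0.991 against 29.2, 35.0 and 19.0 in wt (4.18 ± 0.29, edgeR adjusted p = 5.18e-07). In bzip68 HSP17.4 went from 0.923, 0.819 and 1.52 to 40.1, 45.2 and 60.0 CPM, and the difference in response, 1.28 ± 0.49, did not pass (edgeR adjusted p = 0.726). Small heat shock genes have similar copies, among which reads may be split.

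Of the 10 genes responsive to oxidative stress, all tested, 3 rose in wt and 5 in bzip68, and none fell, where 5.02% and 4.11% of all tested genes rose. The median log2 fold change of the 10 was 0.6 in wt and 1.16 in bzip68, and that of all tested genes 0.00 in both. For bzip68 against wt the median of the 10 was -0.96 after mock spray and -0.31 after H2O2 spray. That of all tested genes was 0.01 and 0.0, and none of the 10 passed the test between genotypes. The response in bzip68 is thus counted from mock values that were mostly lower than in wt. ERF6, a stress ethylene response factor, rose by 1.48 in wt and 1.65 in bzip68, and ZAT6, a zinc finger protein, by 1.2 and 1.49 (edgeR adjusted p = 8.15e-05, 9e-05, 0.007 and 0.00296). ZAT12, an early reporter of oxidative stress, rose by 1.81 in bzip68 (edgeR adjusted p = 0.00963) and was at 0.72 in wt (0.235). The difference, 1.09, did not pass (0.76). In mock plants ZAT12 had 25.1, 30.9 and 10.8 CPM in wt against 8.72, 7.84 and 10.7 in bzip68, which did not pass either (edgeR adjusted p = 0.225).

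Of 9 reactive oxygen enzymes, GPX6, a glutathione peroxidase, rose by 0.76 in wt and 1.0 in bzip68, while GR1, a glutathione reductase, fell by 0.61 and 0.72. SAPX, a plastid ascorbate peroxidase, fell in wt by 0.43 (edgeR adjusted p = 0.0323). The background over all tested genes was 5.02% higher and 4.72% lower in wt, and 4.11% and 3.28% in bzip68. The highest scores of that list, at MDAR1 (407.33), GPX6 (340.92) and DHAR3 (304.95), belong to enzymes that recycle ascorbate or use glutathione. MDAR1 was at 288.5 ± 7.33 CPM in mock wt and 264.8 ± 19.0 in H2O2 wt (SD, n = 3).

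Of 11 tested abscisic acid genes 2 fell in each genotype, ABF3, a bZIP factor (-0.68 in wt and -0.88 in bzip68), and ABA1, zeaxanthin epoxidase (-0.49 and -0.52). Of 12 tested drought and cold genes, KIN2 and COR413IM1 rose in both genotypes, by 1.13 and 1.35 in wt. GOLS1 fell by 0.68 in wt and 1.17 in bzip68, and P5CS2 and RD26 fell in bzip68. Among light genes FHY1, an importer of phytochrome A, rose by 1.0 in wt. Of 5 tested flavonoid genes, those that changed fell: CHS and DFR in wt, and CHS, 4CL1 and 4CL2 in bzip68. These counts stand beside a background over all tested genes of 5.02% higher and 4.72% lower in wt. In bzip68 that background was 4.11% and 3.28%. The lists were not tested against it.

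Few photosynthesis genes passed the test, where of all tested genes 5.02% rose and 4.72% fell in wt, and 4.11% and 3.28% in bzip68. Of 26 tested, 1 fell in wt, RBCS2B, from 6607.8 ± 232.3 to 4607.7 ± 600.5 CPM (SD, n = 3; -0.52, edgeR adjusted p = 0.00875), and 0 passed in bzip68. Their median log2 fold change was 0.12 in wt and 0.06 in bzip68, and that of all tested genes 0.00 in both. Of 8 auxin and growth genes IAA19 and PIN3 fell in wt, of 6 jasmonate genes MYC2 fell in bzip68, and the root marker CASP2 fell in bzip68 by 1.04 (edgeR adjusted p = 0.0306).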

How the data were processed

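The authors deposited whole-number counts per gene for the RNA-seq libraries and lists of ChIP-seq peaks, per the file headers. The names MACS 1.4.3, ChIPseeker, TopHat2 2.1.0, RSEM 2.1.30 and the build TAIR10 are given, with no roles, per the submitters' processing notes. The peak score is 10 times the negative log10 of a p-value (−log10 scale), and the longer list was called at p under 1e-05 with GFP-FLAG as input, per the file headers. The shorter list was limited by the authors to adjusted p-values under 1e-30 and to -1500 to 500 bases from a start, per the file headers. Whether the 3 samples of a kind were pooled, and whether RNA libraries kept the strand, is not given in the sources used here.

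Counts of 12 libraries in 4 groups (8 residual degrees of freedom; 6 columns that matched no label were not used) were filtered with filterByExpr, scaled by TMM and tested with edgeR 4.0.16 (R 4.3.3, robust quasi-likelihood fit, all genes, Benjamini-Hochberg adjusted p under 0.05), after a test on simulated data. The fit took every RNA sample whose column matched a label, which left out the low light groups. DESeq2 1.42.0 was an alternative. CPM used TMM-scaled totals, and standard errors came from the F statistic. Replicates differed by more than sampling noise (chi-square over its degrees of freedom at least 6.06). Same-numbered samples of mock and H2O2 bzip68 deviated together (correlations 0.37, 0.49 and 0.18), so the numbers were taken to pair them, from the data and not the labels. The main fit, which gave all bzip68 values by gene, did not use these pairs. A fit with a term for the replicate number (replicate block) was an alternative.

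Sequences came from RefSeq TAIR10.1, whose nuclear chromosomes matched the deposited coordinates (419 member genes with identical start and end, on 5 chromosomes). Of 3271 member genes 3228 were found there, 3086 of them protein-coding. The deposited start lay a median of 73 bases downstream of the RefSeq start, which was used for windows and profiles around genes. Exact binomial intervals used scipy 1.17.1. The members and the 13 gene lists were chosen with earlier results of these data known. Genes were named by rule: BZIP68, the 8 highest scores, up to 12 genotype calls, up to 6 rising and 6 falling genes of each H2O2 response with a symbol, a mean of at least 5 CPM and no overlap, and up to 4 of each list by score. Further list members called were named after their values were seen.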

Additional observations from a re-analysis of the deposited data

Results flagged for a closer look

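Outside the nuclear regions described above, 5 promoter regions in the organelle genomes covered a start over the GFP-FLAG control. They drew attention because no comparison used them. Of these, 4 lay on the chloroplast genome, at ATCG00410 (score 221.29), ATCG00490 (419.53), ATCG00800 (142.27) and ATCG01120 (216.87), and 1 on the mitochondrial genome, at ATMG01130 (63.21). The region at ATCG00410 was 3027 bases wide and that at ATCG01120 was 42. Whether they reflect binding was not tested.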

How the results depend on the processing

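Calls between genotypes depended on the processing, and calls of the H2O2 responses less so. After mock spray the 8 calls became 39 by DESeq2, 1 with only the groups compared in the fit and 13 without the libraries that stand apart (5 of them among the 8), and 0 to 28 when 1 library was left out. After H2O2 spray the 0 calls became 8 by DESeq2, 3 with only the groups compared, 3 without the libraries that stand apart and 1 with starts taken from the reference, and stayed at 0 when 1 library was left out. For the difference of responses they became 3 by DESeq2 and 0 to 4 with 1 library left out, 4 without mock wt replicate 3. The wt response ran from 232 to 326 and the bzip68 response from 152 to 347 with 1 library left out, and the latter was 181 with only the groups compared. The cause was not tested. The replicate block gave 7, 0, 401, 313 and 0 calls in the 5 comparisons in turn and moved no count by over 1.5 times. After mock spray, where the numbers were not taken as pairs, 6 of its 7 calls were among the 8, and TCH3 (edgeR adjusted p = 0.0717) and AT2G44130 (0.0534) missed the threshold. The share with a G-box was 56.2% at a score of at least 100, 69.1% in the shorter list, 24.1% in the central 200 bases and 22.8% in the 300 bases at the start, and 695 regions were in the shorter list at 1 shared base or at 50% of the region. Uncalled differences between genotypes after H2O2 turned sign with 1 library left out: AT1G19380 (range -0.32 to 0.08) to 0.08, 0.02 and 0.04, TCH3 (from -0.37) to 0.13, 0.08 and 0.16 (without H2O2 wt replicate 1, H2O2 bzip68 replicate 1 and H2O2 bzip68 replicate 2 in turn), SIB1 (from -0.33) to 0.10 (without H2O2 bzip68 replicate 2) and AT1G33610 to -0.02 (without H2O2 bzip68 replicate 3).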

Other observations

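Not all start-covering regions lay at protein-coding genes. A region covered the start of 38 of 625 annotated tRNA genes, 28 of 3480 long non-coding RNAs, 6 snoRNAs, 2 snRNAs and 11 of 326 microRNA genes. The microRNA genes were MIR825, MIR158a, MIR408, MIR776, MIR405a, MIR168a, MIR168b, MIR777, MIR163, MIR159a and MIR858a. MIR168a and MIR168b, which target the silencing factor AGO1, had near-equal scores of 127.86 and 126.61, with the middle at -128 and -111 bases from the start and 3 and 2 G-boxes. The region at MIR408, a copper-responsive microRNA, scored 140.81 and held 1 G-box. These genes were singled out after their values were seen, and their expression is not analysed here.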
